A study of Mus musculus with 2 samples.

Results

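The genes of cholesterol synthesis, sterol sensing, transport and storage were followed across mouse liver cells profiled by droplet single-cell RNA sequencing (10x Chromium, 3′ chemistry), in which each captured transcript is counted once as a unique molecular identifier (UMI). The set holds 28 genes chosen by symbol for their step in the pathway, and all 28 were found among the 32286 features of each of the 2 matrices. No rule on measured values chose them, but the list was drawn up with earlier results of these data known.

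Hepatocytes build cholesterol from acetyl-CoA. The mevalonate steps make isoprenoid units, squalene is assembled and closed into lanosterol, and a chain of sterol enzymes trims lanosterol to cholesterol. The genes are driven by SREBP2 (Srebf2), a membrane-bound transcription factor that SCAP escorts to the Golgi when sterols are scarce and that the INSIG proteins hold back in the endoplasmic reticulum when sterols are plentiful. Hepatocytes also store cholesterol as esters and export it into bile through the ABCG5 and ABCG8 pair.

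The DDC and cMet library (labelled DDC_cMet) pooled cells of wild-type mice on a normal diet at day 0 with cells of Sox9-CreERT2:Rosa26-mTmG mice after 5 months of DDC diet and cMet given through HTVi. In the DDC library, wild-type cells of the same kind were pooled with those of Sox9-EGFP animals fed DDC, a diet that injures the bile ducts, for 2 weeks. Both carry the strain label C57BL/6J;129S6/SvEvTac, both came from liver perfusion for primary hepatocytes, and each time had 2 mice. The mTmG reporter switches only where Sox9-driven Cre acts, and EGFP in Sox9-EGFP mice reports Sox9 promoter activity. Neither mice nor times can be read from the barcodes, so untreated cells sit in both libraries, each library counts as 1 sample, and the effect of a condition cannot be told apart from that of its library. With 1 sample a group there is no test. All intervals are 95% intervals for counting error alone (exact Poisson for levels, Clopper-Pearson for ratios).

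Of 18316 barcodes (186997180 UMIs in all) in the DDC and cMet library, 8099 had 500 genes or more, 2000 UMIs or more and no more than 30% of UMIs from mitochondrial genes. The DDC library gave 2903 such cells of 8694 barcodes (104523363 UMIs). The hepatocyte label was checked with markers: 4734 of these cells (58.5%) in the DDC and cMet library and 1848 (63.7%) in the DDC library were Alb-high, meaning at least 50 Alb UMIs per 10000 and under 10 per 10000 summed markers of other liver cells. A further 1563 and 311 cells reached the Alb level but carried such markers, as a doublet would, and were left out. No doublet caller was run, so hepatocyte doublets remain possible. Near the Alb threshold, at 40 to 60 per 10000, lay 286 and 114 cells. Only 4 barcodes passing the filter were shared by the libraries. Alb-high cells had medians of 24756 and 38703 UMIs, and each cell was therefore thinned at random to 2000 UMIs before levels were compared.

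The promoters of 4 members that carry the results below are printed to show the sequence context of the pathway. They are RefSeq windows of build GRCm38.p6, from 250 bases before to 50 after the gene start, written 5′ to 3′ along the gene. Capitals mark matches on either strand to TCACNCCAC and CACCCCAC (forms of the sterol response element bound by SREBP), CCAAT (bound by NF-Y) and GGGCGG (bound by Sp1). Hmgcs1 lies at chr13:119690101-119690400, plus strand, Idi1 at chr13:8885356-8885655, plus strand, Cyp51 at chr5:4104648-4104947, minus strand, and Insig1 at chr5:28071162-28071461, plus strand.
Hmgcs1: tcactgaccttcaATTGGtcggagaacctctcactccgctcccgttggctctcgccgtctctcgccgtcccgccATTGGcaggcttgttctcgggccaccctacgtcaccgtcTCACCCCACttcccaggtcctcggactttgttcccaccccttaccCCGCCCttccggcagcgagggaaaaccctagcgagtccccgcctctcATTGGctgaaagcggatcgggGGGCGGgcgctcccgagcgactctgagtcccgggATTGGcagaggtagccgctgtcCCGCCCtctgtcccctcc
Idi1: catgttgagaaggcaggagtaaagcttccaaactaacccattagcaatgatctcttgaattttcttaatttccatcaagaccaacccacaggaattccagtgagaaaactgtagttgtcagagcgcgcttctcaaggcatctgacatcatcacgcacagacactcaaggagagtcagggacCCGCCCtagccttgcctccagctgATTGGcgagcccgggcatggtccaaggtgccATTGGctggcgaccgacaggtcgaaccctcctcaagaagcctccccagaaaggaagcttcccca
Cyp51: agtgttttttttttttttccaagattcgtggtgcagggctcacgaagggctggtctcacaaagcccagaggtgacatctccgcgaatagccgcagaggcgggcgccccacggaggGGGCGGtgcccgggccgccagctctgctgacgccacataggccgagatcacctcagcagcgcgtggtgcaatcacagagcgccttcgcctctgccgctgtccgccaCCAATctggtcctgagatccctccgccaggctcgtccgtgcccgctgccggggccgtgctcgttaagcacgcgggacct
Insig1: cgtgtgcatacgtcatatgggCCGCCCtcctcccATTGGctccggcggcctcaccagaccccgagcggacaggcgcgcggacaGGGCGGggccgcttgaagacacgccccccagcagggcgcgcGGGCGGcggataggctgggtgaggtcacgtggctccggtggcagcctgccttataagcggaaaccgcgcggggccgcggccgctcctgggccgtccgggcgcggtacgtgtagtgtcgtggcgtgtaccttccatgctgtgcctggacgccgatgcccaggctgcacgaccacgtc
In the Hmgcs1 window the 2 sterol response forms overlap in 1 run, beside 4 CCAAT and 3 GGGCGG matches. Windows were given for 23 of the 28 members, all but Fdps, Fdft1, Sqle, Stard4 and Soat2. CCAAT stood in 21 of the 23 (91.3%), against 41.1% of all 27025 genes with a window. A gene counts if any of its windows has the match. GGGCGG stood in 19 (82.6%), against 38.2%, and both stood in 17 (73.9%), against 15.8%. TCACNCCAC was found in the window of Hmgcs1 alone among members (4.35%, against 1.44% of all genes with a window), and CACCCCAC in those of Acat2 and Hmgcs1 (8.70%, against 3.30%). Other spellings of the element were not searched, and a match is a description of letters, not of binding. In GENCODE M21 (mm10) the 28 genes lie on 14 chromosomes, and 2 overlap a coding gene on the same strand and 7 one on the other strand.

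Most members had a higher level in Alb-high cells than in the macrophage- and endothelial-marker cells of the same library. Their summed level in Alb-high cells was 21.4 UMIs per 10000 in the DDC and cMet library and 29.6 in the DDC library. Macrophage-marker cells (1313 and 439 cells) had 4.93 and 6.17, and endothelial-marker cells (290 and 69 cells) 7.09 and 8.19. Hepatocyte marker UMIs were also found in these cells, which can carry free RNA: their sum was 41.2 and 26.1 per 10000 in macrophage-marker cells, against 718 and 518 in Alb-high cells. Set against macrophage-marker cells, 26 of 28 members with at least 50 UMIs had the higher level in Alb-high cells of the DDC and cMet library, as did 38.8% of 10077 genes, and 25 of 27 in those of the DDC library, as did 47.1% of 7902 genes. Set against endothelial-marker cells, the counts were 25 of 28, beside 36.5% of 9236 genes, and 23 of 25, beside 46.2% of 6923 genes.

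Ggps1 and Lbr were the members not higher in Alb-high cells in any of these 4 comparisons. In the DDC library Ggps1 had under 50 UMIs over both sides and is not in the counts above. Its level there, 0.0758 (0.0503 to 0.109), overlaps that of macrophage-marker cells, 0.114 (0.0546 to 0.209). Also not higher were Scap against DDC macrophage-marker cells and Stard4 against endothelial-marker cells of both libraries. Ggps1 makes geranylgeranyl diphosphate for protein prenylation, a branch off the sterol path. It had 0.0655 (0.0502 to 0.0839) UMIs per 10000 in Alb-high cells and 0.569 (0.392 to 0.799) in endothelial-marker cells of the DDC and cMet library. Lbr, a sterol reductase that is also the lamin B receptor of the inner nuclear membrane, had 0.102 (0.0831 to 0.125) in Alb-high cells, 0.377 in macrophage-marker cells and 1.0 (0.759 to 1.29) in endothelial-marker cells. Tm7sf2, the other reductase of the same sterol step, ran the opposite way, with 0.357 (0.320 to 0.397) in Alb-high cells and 0.0457 (0.0236 to 0.0798) in macrophage-marker cells. DDC cells gave the same order, with Tm7sf2 at 0.252 and 0.0683 and Lbr at 0.135 and 0.308 in Alb-high and macrophage-marker cells. Stard4, which carries sterol between membranes, was at 0.822 (0.765 to 0.882) in Alb-high and 0.948 (0.714 to 1.23) in endothelial-marker cells of the DDC and cMet library, intervals that overlap.

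**Figure D1:**
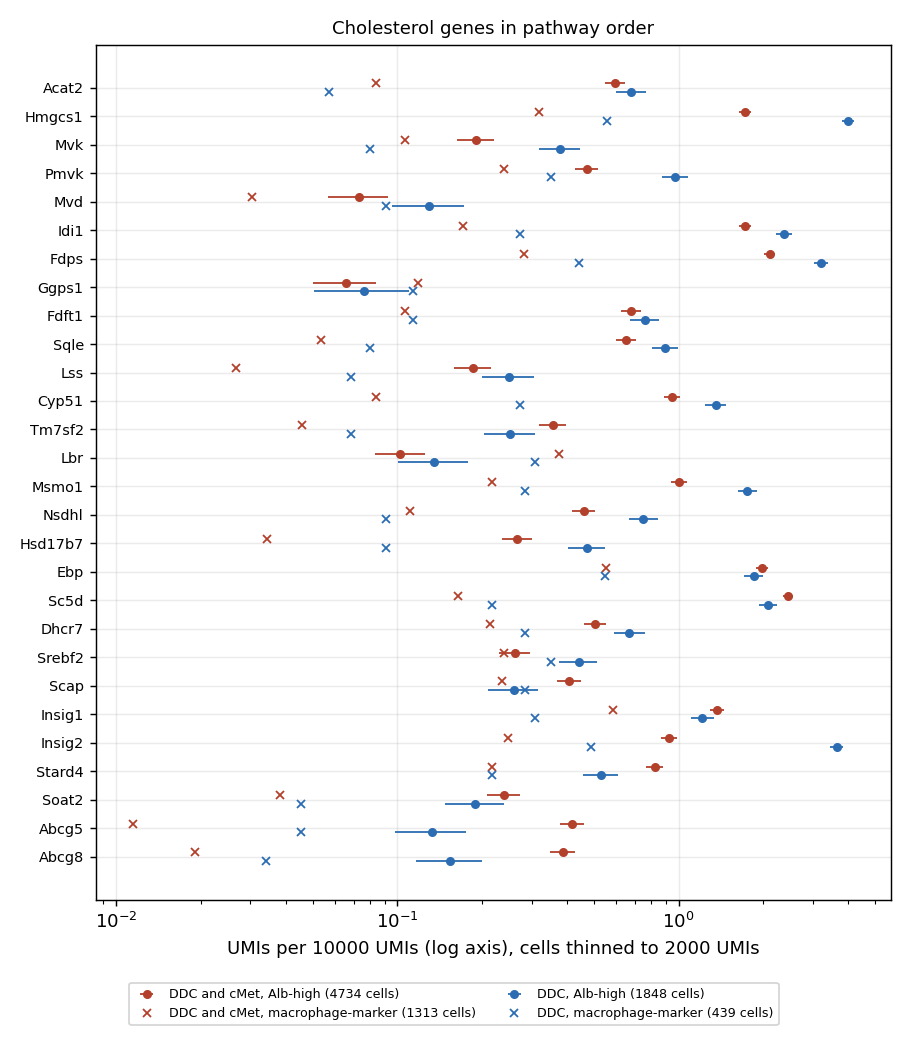
Level of each of the 28 genes, in pathway order from top to bottom, as UMIs per 10000 UMIs on a log axis. Circles are Alb-high cells with 95% Poisson intervals and crosses macrophage-marker cells; red is the DDC and cMet library and blue the DDC library. Ggps1 and Lbr have crosses to the right of their circles.

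Alb-high cells of the DDC and cMet library had lower levels of the mevalonate genes and of Insig2, and higher levels of the sterol exporters, than those of the DDC library. The ratio of DDC and cMet over DDC was at least 1.5-fold lower for 10 members, where 25.4% of 9434 genes were that much lower, and at least 1.5-fold higher for 4, where 8.85% of genes were. The median log2 ratio was -0.41 over the 28 members and -0.27 over all genes, so that relative to the general shift the members' median was -0.15.

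Among the mevalonate enzymes, 5 of 6 were at least 1.5-fold lower in the DDC and cMet library, with a summed level of 6.29 (6.13 to 6.45) UMIs per 10000, against 11.1 (10.7 to 11.4) in the DDC library. Hmgcs1, the cytosolic HMG-CoA synthase, had 1.72 (1.64 to 1.81) in DDC and cMet cells and 4.01 (3.81 to 4.22) in DDC cells, a log2 ratio of -1.22 (-1.32 to -1.12). Without thinning the 2 levels were 1.67 and 3.70. The intervals of the libraries do not overlap on either scale. Pmvk, phosphomevalonate kinase, stood at 0.472 and 0.974, with a log2 ratio of -1.04 (-1.25 to -0.84). Mvk, mevalonate kinase, stood at 0.190 and 0.379 (-0.99), Mvd, which decarboxylates mevalonate diphosphate, at 0.0729 and 0.130 (-0.83), and Fdps, farnesyl diphosphate synthase, at 2.11 and 3.22 (-0.61). Idi1, the isopentenyl diphosphate isomerase, was the member of this group inside 1.5-fold, at 1.72 and 2.37 with a log2 ratio of -0.46 (-0.58 to -0.34). Acat2, the thiolase that feeds the first step, was at 0.594 and 0.679, and its interval, -0.19 (-0.41 to 0.03), spans 0.

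From squalene to lanosterol the differences were smaller. Sqle, squalene epoxidase and an oxygen-dependent control point of the path, had 0.651 UMIs per 10000 in DDC and cMet cells and 0.896 in DDC cells, a log2 ratio of -0.46 (-0.66 to -0.26). Fdft1, squalene synthase, and Lss, lanosterol synthase, had log2 ratios of -0.17 (-0.37 to 0.04) and -0.42 (-0.79 to -0.04). None of these 3 passed 1.5-fold.

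The steps from lanosterol to cholesterol split. Msmo1, Nsdhl and Hsd17b7, which work together to strip methyl groups from the sterol ring, had log2 ratios of -0.81, -0.70 and -0.83, each past 1.5-fold lower in the DDC and cMet library. Ebp, the sterol isomerase, and Sc5d, the desaturase after it, were close to equal, with 1.98 and 2.45 UMIs per 10000 in DDC and cMet cells and 1.85 and 2.08 in DDC cells. Tm7sf2 was higher in DDC and cMet cells (log2 ratio 0.50, 0.17 to 0.85), and Cyp51, the lanosterol demethylase, and Dhcr7, which makes cholesterol from dehydrocholesterol, were lower (-0.52 and -0.40), inside 1.5-fold. The interval of Lbr spans 0 (log2 ratio -0.40, -0.91 to 0.12). In GENCODE M21 Tm7sf2 overlaps Vps51 and Fdps overlaps Gm43738 on the same strand. Cyp51 overlaps Akap9 and Fdft1 overlaps Ctsb on the other strand. Reads of such pairs cannot be assigned with certainty here.

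The sensors of the pathway differed from one another. Insig2 had 0.926 (0.866 to 0.990) UMIs per 10000 in the DDC and cMet library and 3.66 (3.46 to 3.86) in the DDC library, a log2 ratio of -1.98 (-2.10 to -1.86) and the lowest of the 28. Insig1, itself an SREBP target, was close to equal at 1.37 (1.3 to 1.45) and 1.21 (1.11 to 1.33), with a log2 ratio of 0.17 (0.02 to 0.33). Srebf2 was lower in DDC and cMet cells, at 0.261 against 0.441 (log2 ratio -0.76, -1.05 to -0.46), and Scap higher, at 0.408 against 0.260 (log2 ratio 0.65, 0.32 to 0.99). The INSIG genes, whose proteins serve the same retention step, were thus far apart in how they differed between the libraries.

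Genes that move cholesterol out of the hepatocyte were the ones with the highest ratios. Abcg5 had 0.419 (0.379 to 0.463) UMIs per 10000 in DDC and cMet cells and 0.133 (0.0981 to 0.175) in DDC cells, a log2 ratio of 1.66 (1.23 to 2.12). Its partner Abcg8 had 0.387 (0.348 to 0.428) and 0.154 (0.117 to 0.200), a log2 ratio of 1.33 (0.92 to 1.75). These neighbours overlap each other on opposite strands on chromosome 17, and no source used here states whether counting used the strand. Stard4 was higher too (log2 ratio 0.63, 0.40 to 0.87), and Soat2, which esterifies cholesterol, had an interval that spans 0 (log2 ratio 0.33, -0.06 to 0.74). Summed, the 4 transport and storage genes stood at 1.87 (1.78 to 1.96) in DDC and cMet cells and 1.01 (0.907 to 1.11) in DDC cells.

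The libraries also differed in what else their Alb-high cells expressed. Summed hepatocyte markers were at 718 UMIs per 10000 in the DDC and cMet library and 518 in the DDC library, and summed biliary or progenitor markers, mostly Spp1, at 5.72 and 35.0. Their part in the member ratios was not tested. The members' median was -0.19 among cells of 5000 to under 20000 UMIs, where the median of all genes was -0.17. Under the other alternatives that did not centre on all genes, the members' median was between -0.57 and -0.28.

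Neighbouring lipid pathways gave other values in the same comparison, in which 8.85% of all genes were at least 1.5-fold higher and 25.4% that much lower. Of 11 measured genes of fatty acid synthesis under SREBP1, 6 were at least 1.5-fold higher in DDC and cMet cells and 0 that much lower, with a median log2 ratio of 0.63; Thrsp, a lipogenic regulator, led with 7.99 UMIs per 10000 against 0.555 (log2 ratio 3.85, 3.65 to 4.06). Of 6 genes that turn cholesterol into bile acids and export them, 4 were at least 1.5-fold higher and 0 lower, with a median of 1.11. Cyp8b1, a bile acid hydroxylase, had the highest ratio of these, 2.02 (1.51 to 2.57). Of 9 measured genes that use isoprenoids, 0 were higher and 2 lower (median -0.33), and of 11 other sterol-handling genes 0 were higher and 1 lower (median -0.19). The medians of these lists lie near that of all genes, -0.27, and the isoprenoid share lower is near that of all genes.

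**Figure D2:**
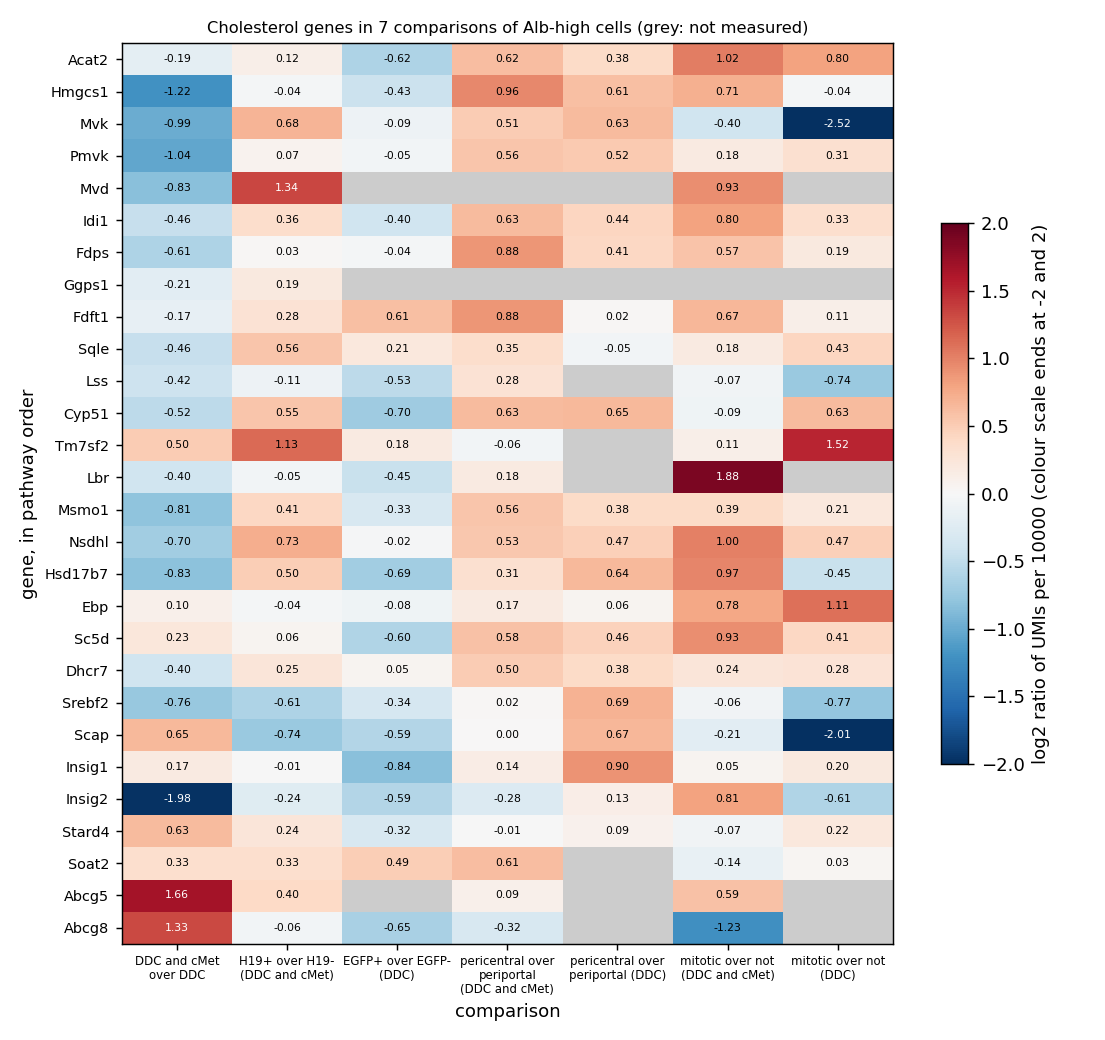
Log2 ratio of UMIs per 10000 for each of the 28 genes (rows, in pathway order) in 7 comparisons of Alb-high cells (columns); red is higher in the group named first, blue lower, and grey marks genes with under 50 UMIs over both sides or 0 UMIs on one. In the first column Insig2 and the mevalonate genes are blue and Abcg5 and Abcg8 red; in the 2 zone columns the lowest value is -0.32, of Abcg8 in the DDC and cMet library.

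H19, an imprinted non-coding RNA of fetal liver, marked 202 Alb-high cells of the DDC and cMet library, in which the thinned cell held at least 1 H19 UMI; 4532 cells had none. In the DDC library 30 Alb-high cells held one, and no comparison by H19 was run there. Idi1, Sqle, Cyp51, Nsdhl and Tm7sf2 were higher in H19-positive cells, with intervals above 0. At this depth the intervals of the other members were not above 0. In deeper cells, given below, more members had intervals above 0, Srebf2 among them, and the interval of Tm7sf2 spans 0. At least 1.5-fold higher were 4 of 28 members, where 9.12% of 8485 genes were, and at least 1.5-fold lower were 2, where 15.6% of genes were. Of the 4 the intervals of Tm7sf2 and Nsdhl lie above 0 and those of Mvd and Mvk span it, as do those of both lower members. The median log2 ratio was 0.22 over members and -0.03 over all genes.

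Tm7sf2 had 0.743 UMIs per 10000 in H19-positive cells and 0.340 in H19-negative cells, a log2 ratio of 1.13 (0.54 to 1.67). Nsdhl, a sterol dehydrogenase, had 0.743 and 0.448 (log2 ratio 0.73, 0.14 to 1.27), and Cyp51 had 1.36 and 0.929 (log2 ratio 0.55, 0.13 to 0.95). Mvd had the highest ratio but rested on 7 UMIs in H19-positive cells (log2 ratio 1.34, -0.03 to 2.47). Sqle was at 0.941 and 0.638 (log2 ratio 0.56, 0.05 to 1.04), and Idi1 at 2.18 and 1.70 (log2 ratio 0.36, 0.03 to 0.67). Hmgcs1 was close to equal, at 1.68 and 1.73 (log2 ratio -0.04, -0.41 to 0.31), and so was Insig1, at 1.36 and 1.37 (log2 ratio -0.01, -0.43 to 0.38). The lowest ratios were those of Scap (log2 ratio -0.74, -1.82 to 0.15), Srebf2 (log2 ratio -0.61, -1.94 to 0.45) and Insig2 (log2 ratio -0.24, -0.79 to 0.27), all with intervals that span 0.

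By H19 UMIs of 0, 1 and 2 or more, the summed members stood at 21.2, 20.9 and 26.0 UMIs per 10000, in 4532, 77 and 125 cells. The lanosterol to cholesterol enzymes stood at 8.00 (7.81 to 8.18), 8.38 (6.99 to 9.95) and 10.5 (9.29 to 11.9). The level at 1 UMI overlaps both others, and that at 2 or more lies above that at 0. H19-positive cells had a median of 19788 UMIs before thinning, and H19-negative cells 25011. In an alternative chosen after seeing the data, cells of at least 20000 UMIs were thinned to 20000, and 100 cells with at least 4 H19 UMIs were set against 2380 with none. There Hmgcs1, Idi1 and Fdps were higher in H19-positive cells, at 0.31 (0.16 to 0.46), 0.48 (0.33 to 0.63) and 0.45 (0.31 to 0.57), inside 1.5-fold. Tm7sf2 was inside 1.5-fold at 0.25 (-0.09 to 0.59), Srebf2 was higher at 0.52 (0.17 to 0.86), and Insig2 was lower at -0.43 (-0.68 to -0.20). The members' median log2 ratio there was 0.27. Among cells of 5000 to under 20000 UMIs it was 0.02, where that of all genes was -0.03. At 2 or more H19 UMIs the members' median was 0.39.

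EGFP marked 196 Alb-high cells of the DDC library with at least 1 EGFP UMI in the thinned cell, and 1652 had none. EGFP-negative cells include cells of untreated mice, which carry no reporter. Insig1, Cyp51, Sc5d, Insig2, Hmgcs1 and Idi1 were lower in EGFP-positive cells, with intervals below 0. Of 25 members measured (Mvd, Ggps1 and Abcg5 had under 50 UMIs), 8 were at least 1.5-fold lower, where 11.8% of 6621 genes were, and 1 was at least 1.5-fold higher, where 13.3% of genes were. Of the 8 the intervals of Acat2, Hsd17b7, Scap and Abcg8 span 0. The median log2 ratio was -0.34 over members and 0.06 over all genes.

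Insig1 had 0.714 UMIs per 10000 in EGFP-positive cells and 1.27 in EGFP-negative cells, a log2 ratio of -0.84 (-1.44 to -0.28). In the bands of 2000 to under 5000 and 5000 to under 20000 UMIs, with 11 and 20 EGFP-positive cells, its ratio had the other direction, at 0.21 and 0.42. Cyp51 had 0.867 and 1.41 (log2 ratio -0.70, -1.25 to -0.20), and Sc5d 1.43 and 2.16 (log2 ratio -0.60, -1.02 to -0.20). Insig2 had 2.53 and 3.79 (log2 ratio -0.59, -0.90 to -0.29). For these 4 genes the interval lies below 0, as it does for Hmgcs1, at 3.06 and 4.13 (log2 ratio -0.43, -0.71 to -0.16). The same holds for Idi1, at 1.84 and 2.43 (log2 ratio -0.40, -0.77 to -0.05), and at 20000 UMIs its log2 ratio was -0.44 (-0.56 to -0.32). Hsd17b7, which completes the removal of the sterol's methyl groups, had 0.306 and 0.493 (log2 ratio -0.69, -1.67 to 0.16).

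Sqle and Fdft1, of the squalene steps, were not lower in EGFP-positive cells. Sqle was at 1.02 in EGFP-positive and 0.881 in EGFP-negative cells (log2 ratio 0.21, -0.30 to 0.69). Fdft1 was at 1.10 and 0.720 (log2 ratio 0.61, 0.10 to 1.08), but a second random thinning gave a log2 ratio of -0.0036, so its direction is not settled at this depth. Lss, the other squalene gene, had a lower level, on 7 UMIs in EGFP-positive cells, with an interval that spans 0 (log2 ratio -0.53, -1.88 to 0.58), also at 20000 UMIs (log2 ratio -0.26, -0.62 to 0.09). Soat2 was the other member among the 3 highest, on 10 UMIs in EGFP-positive cells (log2 ratio 0.49, -0.64 to 1.47). In cells thinned to 20000 UMIs with at least 4 EGFP UMIs (178 cells, against 834 with none), Insig1 was at 0.761 and 1.34, a log2 ratio of -0.82 (-1.01 to -0.64). There Insig2, Sc5d, Hsd17b7 and Hmgcs1 had log2 ratios of -0.74 (-0.84 to -0.63), -0.72 (-0.86 to -0.58), -0.64 (-0.94 to -0.36) and -0.55 (-0.64 to -0.45). Cyp51 was inside 1.5-fold there, at -0.37 (-0.52 to -0.22), and Sqle and Fdft1 had 0.00 (-0.18 to 0.19) and 0.22 (0.03 to 0.41). Abcg5, which has 5 UMIs in the EGFP-positive cells thinned to 2000, was lower at this depth, with 0.0646 against 0.122 (log2 ratio -0.91, -1.60 to -0.29).

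The summed members stood at 30.2, 27.1 and 19.2 UMIs per 10000 at 0, 1 and 2 or more EGFP UMIs, in 1652, 132 and 64 cells. Mevalonate enzymes stood at 11.3 (10.9 to 11.6), 10.6 (9.40 to 11.9) and 7.03 (5.65 to 8.64), the sensors at 5.78 (5.53 to 6.05), 4.32 (3.56 to 5.19) and 2.66 (1.84 to 3.71), and squalene enzymes at 1.86 (1.71 to 2.01), 2.16 (1.64 to 2.80) and 2.58 (1.77 to 3.62). The mevalonate interval at 2 or more UMIs lies below both others, while those of the squalene enzymes overlap at all 3 levels. Other genes differed over the same 3 levels: Alb stood at 262, 202 and 133, and summed biliary or progenitor markers at 26.8, 80.2 and 154. Krt19, a defining marker of duct cells, was at or near 0 at every level (at most 0.0758 UMIs per 10000). Their part in the member levels was not tested.

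The EGFP median was -0.10 under the second random thinning, -0.16 with Alb at least 100 per 10000 and -0.69 with at least 2 EGFP UMIs. Of 5 measured bile acid genes 4 were at least 1.5-fold lower in EGFP-positive cells (median -0.92), and of 11 SREBP1 lipogenesis genes 4 were lower and 1 higher (median -0.53). Of all genes 11.8% were that much lower and 13.3% that much higher. Acss2, an acetyl-CoA synthetase, was the lowest of that list, at 0.128 in EGFP-positive cells and 0.493 in EGFP-negative cells (log2 ratio -1.95, -3.59 to -0.70).

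Position along the lobule was read from pericentral and periportal markers, as the share of pericentral UMIs among both, in cells with at least 5 such UMIs. The upper and lower tertiles of each library, called pericentral and periportal here, were set against each other. They held 1512 and 1516 cells in the DDC and cMet library, and 487 and 470 in the DDC library. The upper tertile began at a pericentral share of 0.286 in both libraries, so the names are relative. Its cells had 30.8 pericentral and 27.4 periportal marker UMIs per 10000 in the DDC and cMet library, and 28.6 and 19.5 in the DDC library. Hmgcs1, Fdps and Cyp51 were among the cholesterol enzymes that were higher in pericentral cells of both libraries. In the DDC and cMet library 7 of 26 measured members were at least 1.5-fold higher, where 4.39% of 7343 genes were, and 0 were that much lower, where 4.51% of genes were; Mvd and Ggps1 had too few UMIs. For the DDC library it was 7 of 20, where 6.34% of 4447 genes were, and 0, where 8.07% were; Mvd, Ggps1, Lss, Tm7sf2, Lbr, Soat2, Abcg5 and Abcg8 had too few UMIs. The median log2 ratios were 0.43 and 0.45 over members, and 0.00 and -0.03 over all genes.

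Hmgcs1 had 2.20 UMIs per 10000 in pericentral and 1.13 in periportal cells of the DDC and cMet library (log2 ratio 0.96, 0.77 to 1.15), and 4.87 and 3.19 in those of the DDC library (log2 ratio 0.61, 0.40 to 0.82). Fdps had 2.67 and 1.45 (log2 ratio 0.88, 0.71 to 1.05), and 3.56 and 2.68 (log2 ratio 0.41, 0.17 to 0.65). Cyp51 had 1.09 and 0.706 (log2 ratio 0.63, 0.38 to 0.88), and 1.72 and 1.10 (log2 ratio 0.65, 0.29 to 1.02). For these 3 enzymes the pericentral value was the higher one in both libraries, with an interval above 0.

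Fdft1 and Insig1 had an interval above 0 in one library and one that spans 0 in the other, and the differences between the libraries were not tested. Fdft1 was at 0.876 in pericentral and 0.475 in periportal cells of the DDC and cMet library (log2 ratio 0.88, 0.59 to 1.19), and at 0.821 and 0.809 in those of the DDC library (log2 ratio 0.02, -0.45 to 0.50). Insig1 had pericentral and periportal levels of 1.47 and 1.34 in DDC and cMet cells (log2 ratio 0.14, -0.05 to 0.34), and of 1.61 and 0.862 in DDC cells (log2 ratio 0.90, 0.51 to 1.31). At 20000 UMIs per cell both genes were higher in pericentral cells of both libraries: Fdft1 had 0.97 (0.84 to 1.10) in DDC and cMet cells and 0.23 (0.08 to 0.39) in DDC cells, and Insig1 0.37 (0.29 to 0.46) and 0.78 (0.66 to 0.91). Among DDC cells of 5000 to under 20000 UMIs (82 and 93 cells) the Insig1 ratio was -0.11. Sqle had log2 ratios of 0.35 (0.05 to 0.65) and -0.05 (-0.51 to 0.41).

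The lowest ratios in the DDC and cMet library were those of Abcg8 (log2 ratio -0.32, -0.71 to 0.06), Insig2 (log2 ratio -0.28, -0.52 to -0.04) and Tm7sf2 (log2 ratio -0.06, -0.44 to 0.33). At 20000 UMIs Abcg8 had the other direction, with 0.21 (0.06 to 0.36), and the Tm7sf2 interval still spans 0 (log2 ratio 0.04, -0.13 to 0.21). In DDC cells they were those of Sqle, Fdft1 and Ebp, the last at 0.06 (-0.24 to 0.36). Srebf2 was among the 3 highest there (log2 ratio 0.69, 0.03 to 1.39), but the ratio was -0.51 under a second random thinning and -0.17 (-0.39 to 0.05) at 20000 UMIs, so its direction is not settled. Scap had 0.339 and 0.213 UMIs per 10000, on 33 and 20 UMIs (log2 ratio 0.67, -0.17 to 1.55).

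Through the pericentral, middle and periportal tertiles the summed members stood at 24.2, 21.9 and 17.8 UMIs per 10000 in the DDC and cMet library, and at 34.3, 29.9 and 26.0 in the DDC library. The mevalonate enzymes of the DDC and cMet library stood at 7.71 (7.40 to 8.03), 6.56 (6.26 to 6.87) and 4.44 (4.20 to 4.68), and none of the 3 intervals overlap. Its sensors were at 3.0, 2.85 and 3.03, and its transport and storage genes at 1.84, 2.06 and 1.81, with no such order. Sensors of the DDC library stood at 6.54 (6.04 to 7.07), 5.35 (4.87 to 5.87) and 5.12 (4.67 to 5.60). There the pericentral interval lies above both others. Transport and storage genes of the DDC library stood at 1.08, 1.03 and 0.872, with intervals that overlap.

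At 20000 UMIs per cell, with tertiles drawn from the deeper counts (869 and 869 cells; an alternative chosen after seeing the data), 12 of 28 members were at least 1.5-fold higher in pericentral cells of the DDC and cMet library and 0 lower, where 5.38% and 6.53% of all genes were. Hmgcs1 was at 2.22 and 0.946 there (log2 ratio 1.23, 1.14 to 1.31), Idi1 at 1.89 and 0.918 (log2 ratio 1.04, 0.96 to 1.13), and Insig2 at 0.930 and 1.18 (log2 ratio -0.34, -0.44 to -0.25). Among DDC cells (455 and 455 cells) it was 7 of 28 higher and 0 lower, with 5.71% and 11.5% of all genes. Abcg8 and Lbr, with too few UMIs there at 2000 UMIs per cell, had the highest ratios. Abcg8 was at 0.190 and 0.0868 (log2 ratio 1.13, 0.74 to 1.53), and Lbr at 0.158 and 0.0868 (log2 ratio 0.87, 0.46 to 1.28). The interval of Abcg5 spans 0 (log2 ratio 0.34, -0.08 to 0.76). Hmgcs1 was at 5.06 and 2.80 in that library (log2 ratio 0.85, 0.78 to 0.92), Insig1 at 1.55 and 0.902, and Insig2 at 3.76 and 2.99 (log2 ratio 0.33, 0.26 to 0.40). Insig2 was thus lower in pericentral cells of the one library and higher in those of the other. At 2000 UMIs per cell the DDC value was 0.13 (-0.08 to 0.34), an interval that spans 0, and the difference between the libraries was not tested.

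The zone index leaned on few genes. Pck1, a fasting-responsive enzyme, gave 41.9% of the periportal UMIs of the DDC and cMet library and 27.7% of those of the DDC library, and Rgn 33.0% and 12.5% of the pericentral ones. Without both genes the members' medians were 0.32 and 0.35, and with Cyp2e1 against Cyp2f2 alone at 20000 UMIs 0.46 and 0.29; both alternatives were chosen after seeing the data. The cells lay close together on the index, with 1444 of 4406 and 386 of 1384 cells within 0.05 of a boundary between tertiles. Mitosis markers were also higher in pericentral cells, at 2.09 against 0.508 in the DDC and cMet library and 2.16 against 0.670 in the DDC library. Summed biliary or progenitor markers were lower there, at 2.24 against 7.03 and 10.3 against 51.0. Their part in the zone values was not tested.

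Of the bile acid genes, Cyp7a1 had a higher zone ratio than any member measured in either library. This rate-limiting enzyme of bile acid synthesis was at 1.83 in pericentral and 0.277 in periportal cells of the DDC and cMet library (log2 ratio 2.73, 2.39 to 3.07) and at 0.667 and 0.0426 in the DDC library (log2 ratio 3.97, 2.55 to 5.89). Cyp7b1, of the alternative bile acid route, was lower in pericentral cells of the DDC and cMet library, at 0.612 and 1.72 (log2 ratio -1.49, -1.74 to -1.24). Scd1, a fatty acid desaturase, had 31.5 in pericentral and 20.1 in periportal cells there (log2 ratio 0.65, 0.60 to 0.69), and 18.7 and 7.23 in those of the DDC library (log2 ratio 1.37, 1.24 to 1.5).

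**Figure D3:**
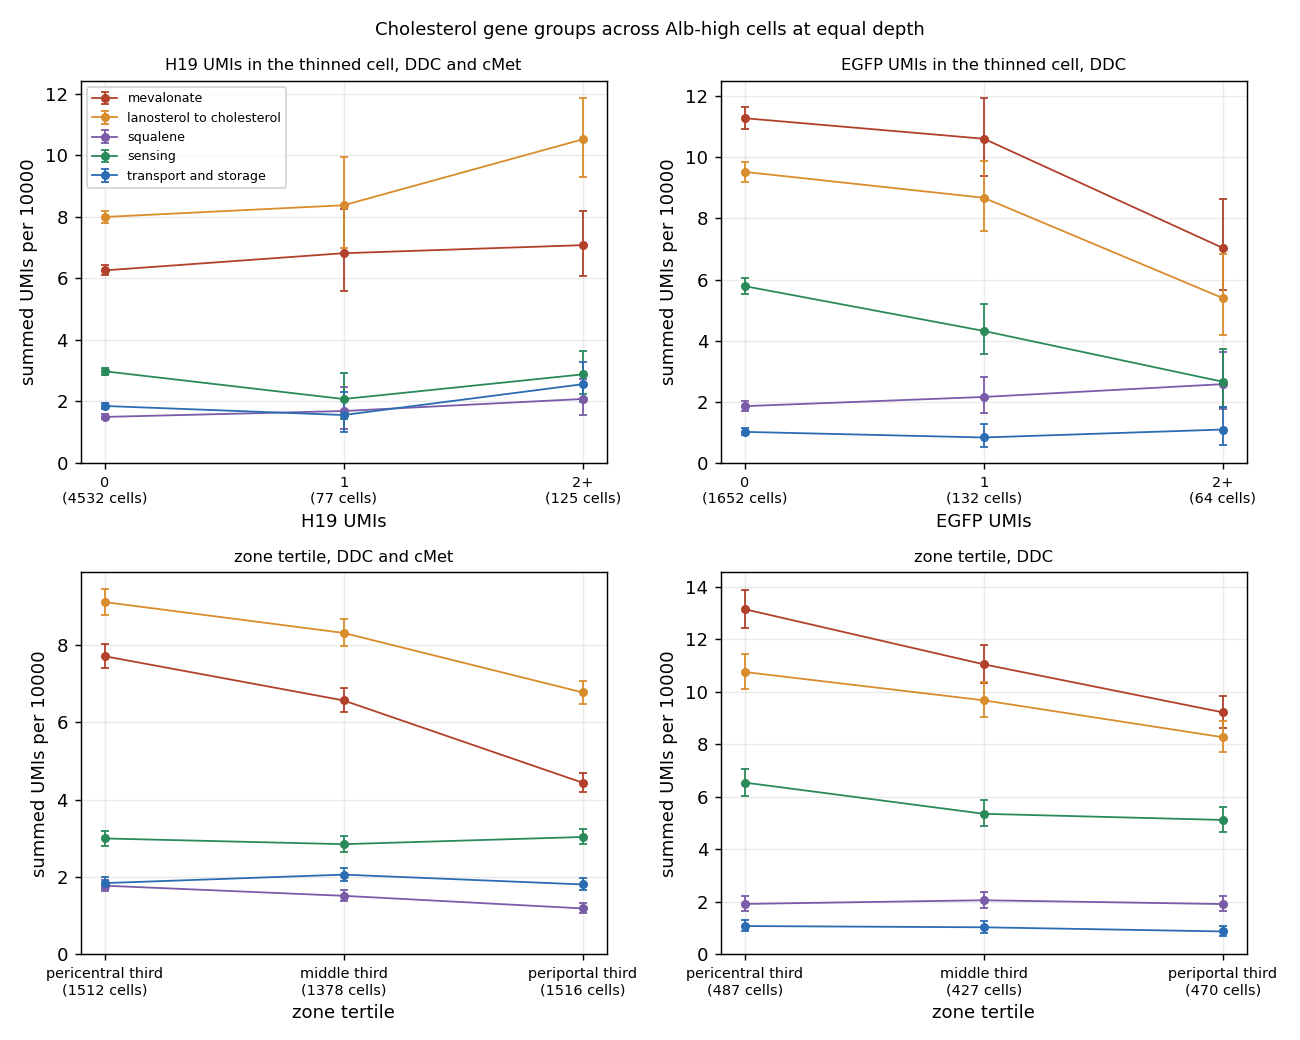
Summed UMIs per 10000 for 5 groups of the pathway (colours) by H19 UMIs per cell, EGFP UMIs per cell and zone tertile, with 95% Poisson intervals; cell numbers stand under each position. Mevalonate and lanosterol to cholesterol genes are lower at 2 or more EGFP UMIs than at 0, and lower in the periportal than in the pericentral tertile of both libraries, while the intervals of the squalene genes overlap at all 3 EGFP levels.

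Cells with at least 3 UMIs of 20 mitosis genes in the thinned cell numbered 143 in the DDC and cMet library, set against 4146 with none, and 74 against 1614 in the DDC library. Ebp was higher in mitotic cells of both libraries, Lbr, Acat2 and Nsdhl were higher in those of the DDC and cMet library, and Insig2 was higher in mitotic cells of the DDC and cMet library and lower in those of the DDC library. In the DDC and cMet library 12 of 27 measured members were at least 1.5-fold higher, where 19% of 8126 genes were, and 1 was that much lower, where 17.9% of genes were. Among DDC cells 4 of 23 were higher, where 20.3% of 6254 genes were, and 5 lower, where 20.3% were (Mvd, Ggps1, Lbr, Abcg5 and Abcg8 were not measured), so there the members' share was near the background in both directions. In the DDC and cMet library Mvd and Abcg5 of the 12 and Abcg8, the one lower, had intervals that span 0. Among DDC cells the intervals leave out 0 for Ebp, Tm7sf2 and Cyp51 of the 4 higher and for Insig2 and Mvk of the 5 lower. The medians were 0.39 and 0.21 over members and 0.07 and 0.05 over all genes.

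Lbr had 0.350 UMIs per 10000 in mitotic and 0.0953 in other cells of the DDC and cMet library (log2 ratio 1.88, 0.76 to 2.83), and 0.405 and 0.118 in those of the DDC library, on 6 and 38 UMIs, under the minimum for a ratio. Ebp, the sterol isomerase, had 3.18 and 1.86 (log2 ratio 0.78, 0.45 to 1.08), and 3.72 and 1.73 (log2 ratio 1.11, 0.68 to 1.51). Acat2 had 1.12 and 0.552 (log2 ratio 1.02, 0.45 to 1.54), and 1.15 and 0.660 (log2 ratio 0.80, -0.01 to 1.51). Acat2 has a near copy, Acat3, beside it on chromosome 17, and reads shared by the pair could not be placed here. Nsdhl had 0.874 and 0.437 (log2 ratio 1.0, 0.35 to 1.59) in the DDC and cMet library, and 0.47 (-0.39 to 1.22) as its log2 ratio in the DDC library.

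Hmgcs1 was at 2.69 in mitotic and 1.65 in other cells of the DDC and cMet library (log2 ratio 0.71, 0.36 to 1.04), and at 3.92 and 4.04 in those of the DDC library (log2 ratio -0.04, -0.45 to 0.34). Sqle had log2 ratios of 0.18 (-0.52 to 0.81) and 0.43 (-0.34 to 1.12), and Insig1 0.05 (-0.44 to 0.50) and 0.20 (-0.53 to 0.85), all with intervals that span 0. The difference between the libraries was not tested. Among members with at least 50 UMIs Tm7sf2 was the highest in the DDC library, at 0.676 and 0.235 (log2 ratio 1.52, 0.40 to 2.48), but at 20000 UMIs its interval spans 0 (log2 ratio 0.43, -0.04 to 0.87).

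The lowest ratios rested on few UMIs. Abcg8 had 0.175 UMIs per 10000 in mitotic and 0.409 in other cells of the DDC and cMet library (log2 ratio -1.23, -2.86 to 0.01), followed by Mvk (log2 ratio -0.40, -2.29 to 0.99) and Scap (log2 ratio -0.21, -1.29 to 0.68). At 20000 UMIs Mvk had the other direction in that library, with 0.76 (0.26 to 1.23). Among DDC cells Mvk had a log2 ratio of -2.52 (-7.83 to -0.01) and Scap of -2.01 (-7.33 to 0.50), each on 1 UMI in mitotic cells, and Srebf2 had -0.77 (-2.67 to 0.61) on 4. Without thinning, the Mvk ratio was 0.06, so the thinned value carries no direction. Ggps1 in the DDC and cMet library and Abcg8 in the DDC library had 0 UMIs in mitotic cells thinned to 2000, and no ratio is given.

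An alternative chosen after seeing the data used cells of at least 20000 UMIs thinned to 20000, with at least 20 mitosis UMIs against at most 2 (58 against 2299 cells and 74 against 1177). The log2 ratio of Lbr was 2.19 (1.72 to 2.63) for DDC and cMet cells and 1.98 (1.57 to 2.37) for DDC cells. Ebp had 0.87 (0.71 to 1.02) and 1.09 (0.96 to 1.23), and Nsdhl 1.02 (0.70 to 1.32) and 0.56 (0.30 to 0.81). Hmgcs1 was higher in mitotic cells of both libraries at this depth, at 3.07 against 1.54 (log2 ratio 1.0, 0.84 to 1.15) and at 4.98 against 3.80 (log2 ratio 0.39, 0.28 to 0.50). Insig1 had 0.21 (-0.02 to 0.43) and 0.65 (0.47 to 0.83), past 1.5-fold in DDC cells, and Sqle had 0.40 (0.09 to 0.70) and 0.17 (-0.09 to 0.42), with an interval above 0 in DDC and cMet cells. Abcg8 was lower in both, with -0.87 (-1.49 to -0.31) and -0.95 (-2.03 to -0.05).

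In the DDC and cMet library mitotic cells were shallower before thinning, with a median of 9017 UMIs against 26034, and had more pericentral markers, at 23.4 against 12.9 per 10000. For the DDC library the depths were 45097 and 38802 and the pericentral markers 10.7 and 10.3. Their part in the mitosis values was not tested. The members' median in the DDC and cMet library was 0.10 among cells of 5000 to under 20000 UMIs (40 mitotic cells), where that of all genes was 0.08. In the DDC library it was 0.08 with at least 2 mitosis UMIs, where that of all genes was 0.03. Outside the set, Tmem97, a sterol-regulated membrane protein, had 2.10 in mitotic and 0.991 in other DDC and cMet cells (log2 ratio 1.08, 0.68 to 1.46), and 1.96 and 1.11 in mitotic and other DDC cells (log2 ratio 0.82, 0.22 to 1.36). Thrsp had 2.83 in mitotic and 8.40 in other DDC and cMet cells (log2 ratio -1.57, -1.90 to -1.25).

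From cell to cell, Hmgcs1, Idi1, Fdps, Cyp51 and Msmo1 varied together in both libraries, and the exporters and Scap had little correlation with the other members. This was read in Alb-high cells of at least 20000 UMIs thinned to 20000, 2606 in the DDC and cMet library and 1365 in the DDC library. The summed members had a median of 17 UMIs per 10000 per cell in the DDC and cMet library, with 5% of cells below 8.5 and 5% above 43, and a median of 25 in the DDC library, with 5% below 11 and 5% above 57.5. Pearson correlations of log2(UMIs per 10000 + 1) over all 378 pairs had medians of 0.0801 and 0.108. The highest pair in both libraries was Hmgcs1 with Idi1, at 0.616 and 0.656. Cells of a library share its mice, times and zones, so the correlations describe these cells and carry no test.

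The r of each gene with the sum of the other 27 was at least 0.5 for Hmgcs1, Idi1, Fdps, Sqle, Cyp51 and Msmo1 in the DDC and cMet library, and for Hmgcs1, Idi1, Fdps, Cyp51, Msmo1, Sc5d and Insig1 in the DDC library. Hmgcs1 stood at 0.660 and 0.743, and Idi1 at 0.691 and 0.705. Within 0.1 of 0 were Ggps1, Scap, Abcg5 and Abcg8 in both libraries, and Insig2 and Soat2 in the DDC and cMet library as well. Insig1 had 0.383 and 0.530, and Insig2 -0.0609 and 0.218. Ebp, seen in 95.6% and 94.1% of the cells, had 0.132 and 0.206, and Ggps1, seen in 10.4% and 14.6%, had -0.0315 and -0.0567. Mvd, seen in 14.6% of DDC and cMet cells, had 0.330 there. Abcg5 and Abcg8 were seen in 53.4% and 50.6% of DDC and cMet cells and in 18.3% and 20.5% of DDC cells. The part of detection in these r values was not tested.

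Among genes outside the set, seen in at least 20% of these cells, the 5 most like the summed members were taken in each library. In the DDC and cMet library, where 6465 genes were ranked, they included Scd1 (r 0.557), Dbi, an acyl-CoA binding protein (0.548), and Apoa1, the main HDL protein (0.453). In DDC cells, with 6974 ranked, they included Fasn, fatty acid synthase (0.452), Fabp1, a fatty acid carrier (0.450), and Acly, which supplies cytosolic acetyl-CoA (0.432).

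**Figure D4:**
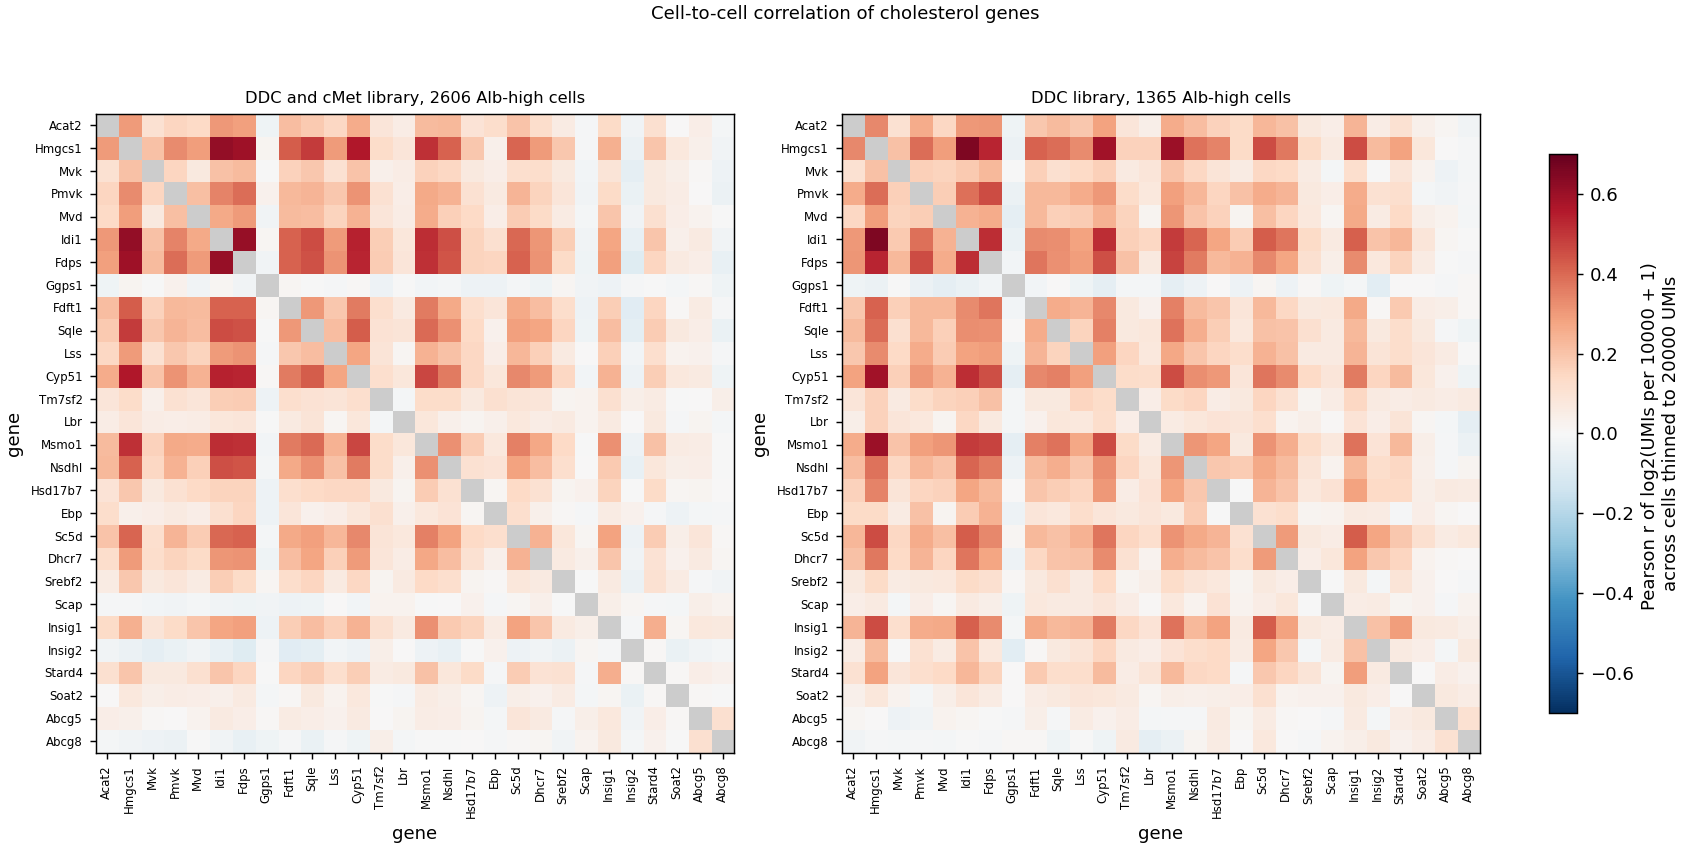
Pearson r between each pair of the 28 genes across Alb-high cells thinned to 20000 UMIs, in pathway order, for the DDC and cMet library (left, 2606 cells) and the DDC library (right, 1365 cells); grey marks a gene with itself. The rows of Hmgcs1, Idi1, Fdps, Cyp51 and Msmo1 are dark against one another, and those of Ggps1, Scap, Abcg5 and Abcg8 are pale.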

How the data were processed

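Deposited data were UMI counts: per the file headers, the authors' matrices hold whole-number counts per gene and barcode made with Cell Ranger 5.0.1, while Cell Ranger 6.0.1, build mm10 and Seurat 4.0.1 stand in the submitters' processing notes; which version applies is unsettled. The gene and barcode lists deposited by the authors are text (unit other). How barcodes were chosen and the strand setting are not given in the sources used here. The 28 members, the marker and context lists and the comparisons were chosen with earlier results of these data known, and some genes are not reported here.

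Kept cells had 500 genes or more, 2000 UMIs or more and no more than 30% of UMIs from mitochondrial genes, and each was thinned without replacement to 2000 UMIs (fixed seed). A log2 ratio was taken of UMIs summed over cells, for genes with at least 50 UMIs over both sides; no ratio is printed where one side had 0 UMIs. Intervals (95%) are exact Poisson for levels and conditional Clopper-Pearson for ratios and cover counting error only. With 1 library a group no test was made; members past 1.5-fold are counted beside all genes. Intervals were also run on simulated Poisson counts, the counting model they assume. That run says nothing of spread between cells or mice. Genes simulated as unchanged passed 1.5-fold more often in the H19, EGFP and mitosis settings than in the library and zone ones. The extra reporter feature stayed in the totals. UMIs of 3′ ends compare a gene across cells, not one gene with another.

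Named in each comparison were Hmgcs1, Sqle, Insig1 and the 3 highest and 3 lowest members, and other members to describe their pathway step; those others were chosen after their values were seen. Of the lists of other genes, the highest or lowest member is named. Alternatives were the thinning depth and draw, no thinning (sum, or mean over cells), the Alb minimum (20 or 100), keeping cells with other markers, at most 20% mitochondrial UMIs, bands of depth, no UMI minimum, 2 other scalings and other marker thresholds; those at 20000 UMIs per cell and 2 other zone indices were chosen after seeing the data. Positions came from GENCODE M21 (mm10) and promoters from RefSeq (GRCm38.p6). Computing used numpy 2.4.6, scipy 1.17.1 and pandas 2.3.3 under Python 3.11.15, with matplotlib 3.10.9 for figures.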

Additional observations from a re-analysis of the deposited data

Results flagged for a closer look

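Insig2, one of the genes whose proteins hold SREBP2 back, stood out because mitotic cells differed from other cells in opposite directions in the 2 libraries. In the DDC and cMet library it had 1.54 UMIs per 10000 in mitotic and 0.879 in other cells, a log2 ratio of 0.81 (0.33 to 1.25). In the DDC library it had 2.43 and 3.71, a log2 ratio of -0.61 (-1.13 to -0.13). In cells thinned to 20000 UMIs the ratios were 0.39 (0.14 to 0.62) and -0.19 (-0.33 to -0.05). The difference between the libraries was not tested.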

How the results depend on the processing

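The median log2 ratio of the members kept its direction against 0 under every alternative run. It ranged from -0.57 to -0.15 for DDC and cMet over DDC, from 0.02 to 0.39 for H19, from -0.69 to -0.10 for EGFP, from 0.25 to 0.50 and 0.27 to 0.76 for the zone of the DDC and cMet and the DDC library, and from 0.10 to 0.54 and 0.08 to 0.30 for mitosis. In some alternatives the members' median lay close to that of all genes. In the band of 5000 to under 20000 UMIs the 2 medians were -0.19 and -0.17 for the libraries. For mitosis in the DDC and cMet library they were 0.10 and 0.08 in that band. With at least 2 mitosis UMIs they were 0.08 and 0.03 in the DDC library. Counts past 1.5-fold moved more than the medians. For the libraries 2 to 6 members were higher and 8 to 13 lower, for H19 1 to 8 and 0 to 4, and for EGFP 0 to 2 and 2 to 13. For the zone 4 to 12 and 0 to 1 were counted in the DDC and cMet library and 2 to 8 and 0 to 1 in the DDC library, and for mitosis 3 to 12 and 1 to 5, and 3 to 6 and 2 to 5. Named genes past 1.5-fold with an interval that leaves out 0 reversed in 8 of 391 alternative values, and the other named genes had the opposite sign in 86 of 540. Of all 931 values, 93 more lay outside the counting interval of the value as reported without such a reversal. A second random thinning gave -0.51 for Srebf2 in the DDC zone and -0.0036 for Fdft1 in EGFP-positive cells. Srebf2 in the DDC zone was -0.17 at 20000 UMIs. Insig1 in EGFP-positive cells was 0.21 and 0.42 in the bands of 2000 to under 5000 and 5000 to under 20000 UMIs, with 11 and 20 such cells, and Insig1 in the DDC zone -0.11 in the second band. Mvk in mitotic DDC cells was 0.0582 (sum) and 0.0520 (mean over cells) without thinning. The cause was not tested. DDC mitosis has no value in the 2 shallower bands, with under 10 cells on a side. No paired analysis was possible because each group is 1 library. Depth limits scarce members such as Mvd, Ggps1 and Lbr, with 69, 62 and 97 UMIs over the thinned Alb-high cells of the DDC and cMet library and 48, 28 and 50 over those of the DDC library.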
